A study of Mus musculus with 9 samples.

Results

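The 31 genes described here run mitochondrial and peroxisomal fatty acid oxidation, with its main regulators and the proteins that bring fatty acids in and activate them. They were chosen by gene symbol from a list made with earlier results of these data known, not by their values in a test. All 31 were found among the 22161 genes of the table, and all 31 were among the 15740 genes tested, which are those with a mean of at least 10 normalized counts over the 9 libraries.

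The study asked how kidneys of young adult mice differ in their RNA when Pkd2 is removed after birth, alone or with cilia. Polycystin-2, the product of Pkd2, is a cation channel whose gene is one of those mutated in dominantly inherited polycystic kidney disease. The product of Ift88 carries cargo along cilia, and cilia do not form without it. There were 3 double knockout mice (Ift88fl/fl;Pkd2fl/fl;Pax8rtTA;TetO-cre), 3 Pkd2 knockout mice (Pkd2fl/fl;Pax8rtTA;TetO-cre) and 3 mice labelled as wild type, given as biological replicates. All 9 were C57BL/6 mice that drank 2 mg/ml doxycycline for 2 weeks from postnatal day 28, and whose kidneys were taken at 10 weeks (postnatal day 70). Doxycycline switches on the cre through Pax8rtTA, which is active in kidney tubule cells, so the other cells of the kidney keep their alleles. The labels do not say whether the wild type mice carried Pax8rtTA or TetO-cre. Libraries were made from poly(A) RNA of kidney tissue, so for every result below fewer cells of a type and less RNA per cell cannot be told apart.

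As background, fatty acids enter the cell through transporters, are bound to coenzyme A and, when long, cross into mitochondria on carnitine. There acyl-CoA dehydrogenases, hydratases, hydroxyacyl-CoA dehydrogenases and thiolases remove carbon pairs in turns, and electron transfer flavoprotein hands the electrons to the respiratory chain. Peroxisomes shorten very long and branched chains with their own set of enzymes, starting with an oxidase. The proximal tubule of the kidney draws much of its energy from this pathway, and the nuclear receptor PPAR-alpha, encoded by Ppara, and its coactivator PGC-1alpha, encoded by Ppargc1a, are known to drive its genes.

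A pair of the genes are near-identical copies, and this bears on one of the results below. Acaa1a and Acaa1b encode peroxisomal 3-ketoacyl-CoA thiolases, which make the last cut of each peroxisomal turn. Their longest open reading frames in the GENCODE M21 transcripts, both on chromosome 9, are 1275 bases each and 96.5% identical, with 44 differing bases and a longest identical run of 327 bases. The stretch of 120 bases from position 433 to 552 of the reading frame holds 14 of the differences. It is shown because within the reading frame reads can be told apart at such places only, with the differing bases in capitals, 5′ to 3′ on the coding strand. The untranslated parts of the transcripts were not compared.
Acaa1a: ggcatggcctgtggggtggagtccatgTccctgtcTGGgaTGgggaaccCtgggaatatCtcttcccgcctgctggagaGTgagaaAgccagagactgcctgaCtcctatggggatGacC
Acaa1b: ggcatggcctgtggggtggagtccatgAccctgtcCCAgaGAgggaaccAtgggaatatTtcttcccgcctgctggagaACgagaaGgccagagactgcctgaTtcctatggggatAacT

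PPAR-alpha and related nuclear receptors are known to bind the hexamer AGGTCA. Promoter windows from RefSeq (GRCm38.p6, 250 bases before to 50 after a gene's start) matched 27 of the 31 genes, with 29 windows; Acaa2, Crat, Decr1 and Hsd17b4 had none. The spaced repeat AGGTCANAGGTCA, the textbook PPAR-alpha element in its ideal form, was in 0 of the 29 windows on either strand and in 0.0396% of all 32851 windows. The extended hexamer TCAAGGTCA was in 0 of the 29 and in 0.423% of all. The single hexamer AGGTCA, which lies within both longer motifs, was in 5 of the 29 windows (17.2%), against 16.3% of all windows, so the share was close to that of promoters at large. The 5 matches are shown, as 30 bases each on the strand of the gene with the hexamer or its reverse complement in capitals, because they are where these letters stand before the genes described below. They lie at chr3:153944864-153944893 (minus strand, Acadm), chr5:17836107-17836136 (minus, Cd36), chr7:140116487-140116516 (minus, Echs1), chr11:70015498-70015527 (minus, Acadvl) and chr19:3323195-3323224 (plus, Cpt1a). A match of letters is a description and does not show binding.
Acadm: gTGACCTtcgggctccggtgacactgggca
Cd36: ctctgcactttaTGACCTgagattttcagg
Echs1: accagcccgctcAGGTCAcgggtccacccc
Acadvl: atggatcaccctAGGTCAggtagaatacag
Cpt1a: cagtttccttacTGACCTcctccccgcagc

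The normalized counts summed to between 40454151 and 42874467 per library. As a check of the labels, Pkd2 averaged 4687 ± 789 normalized counts in double knockout, 5118 ± 414 in Pkd2 knockout and 14095 ± 375 in wild type kidneys (SD, n = 3 each), and fell in both mutant groups (limma, adjusted p = 0.000843 for double knockout and 0.000972 for Pkd2 knockout against wild type). Ift88 averaged 752 ± 71.4 in double knockout, 1140 ± 66.0 in Pkd2 knockout and 1085 ± 41.0 in wild type kidneys, and fell in double knockout against Pkd2 knockout (adjusted p = 0.0358) but missed the threshold against wild type (adjusted p = 0.0617). The prefixes of the mouse names differ between genotypes, and in wild type and Pkd2 knockout mouse 3 has another prefix than mice 1 and 2. No prefix is shared by 2 genotypes, so what it stands for and the genotype cannot be told apart.

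None of the 31 genes passed the test in any comparison. Between Pkd2 knockout and wild type 0 of 31 were called at an adjusted p below 0.05 (limma on log2(normalized count + 1), Benjamini-Hochberg over all genes tested), where 2.4% of all genes were. Between double knockout and Pkd2 knockout 0 of 31 were called (0.394% of all genes), and between double knockout and wild type again 0 of 31 (0.229% of all genes). At each of those shares fewer than 1 of 31 genes would be called, so the counts of 0 do not set the pathway apart from other genes. The smallest adjusted p was 0.133, for Acaa1b, in the first comparison, 0.486, for Acox2, in the second and 0.164, for Ppara, in the third. At an unadjusted p below 0.05 there were 3 of 31 between Pkd2 knockout and wild type (18% of all genes), with Ppara higher (9.36% of all genes were) and Acaa1b and Fabp3 lower (8.67%). There were 0 of 31 between double and Pkd2 knockout (10.7% of all genes). Between double knockout and wild type there were 7 of 31 (11.7% of all genes), with Ppara and Acox2 higher (5.93%) and Acadm, Crat, Eci2, Etfb and Fabp3 lower (5.81%). On the 7 libraries whose whole reads could be recovered, 0 of 31 were called in every comparison by edgeR, which called 0.07% of all genes between Pkd2 knockout and wild type and 0.0636% in each comparison of double knockout. DESeq2 on the same libraries also called 0 of 31 in every comparison, against 1.92% of all genes with an adjusted p between Pkd2 knockout and wild type, 0.967% between double and Pkd2 knockout and 0.803% between double knockout and wild type. At these shares too fewer than 1 of 31 would be called. These 3 comparisons share their groups and are not independent of each other.

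The measurements bound most differences fairly tightly. The 95% interval of the log2 fold change, not adjusted for the number of genes, lay wholly within a 1.5-fold change either way for 25 of 31 genes between Pkd2 knockout and wild type (57.3% of all genes), for 26 of 31 between double and Pkd2 knockout (60.6%) and for 22 of 31 between double knockout and wild type (59.6%). The median standard error was 0.10 on the log2 scale for the 31 genes and 0.14 for all genes tested. The 31 are abundant, with a lowest value of 522 (Fabp3 in double knockout mouse 3), while the all-gene shares include genes down to a mean of 10. No share for genes of like level was computed, so these shares do not show the pathway to be unusually steady. A fold change past 1.5 was seen for 1 of 31 genes, Acaa1b, between Pkd2 knockout and wild type (12.1% of all genes) and for 0 of 31 in the other two comparisons (9.76% and 6.82%). The median log2 difference was -0.07 for Pkd2 knockout minus wild type, 0.02 for double minus Pkd2 knockout and -0.06 for double knockout minus wild type, with all-gene medians within 0.01 of 0.

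**Figure D1:**
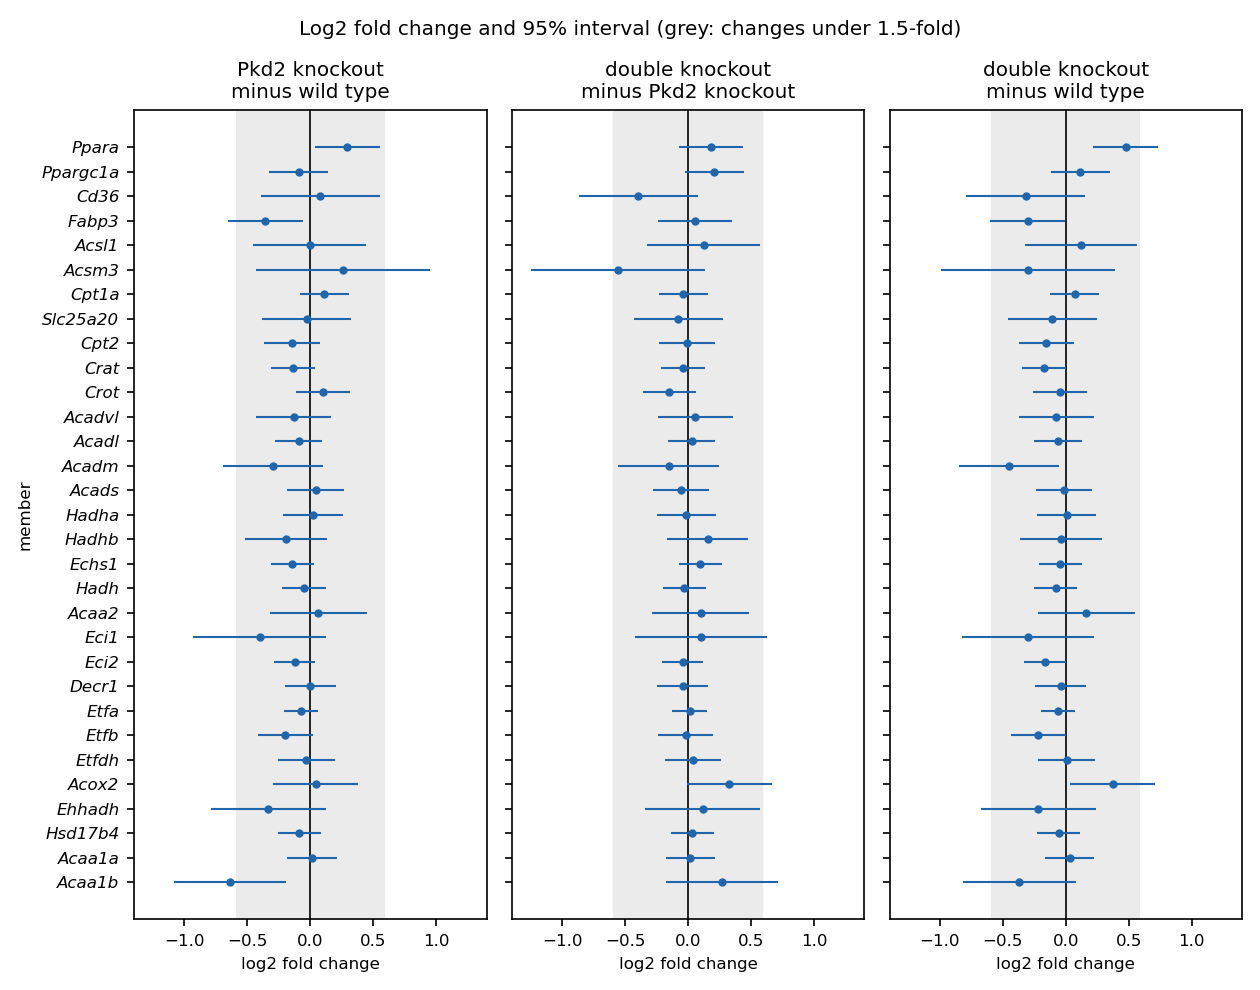
Log2 fold change (points) with its 95% interval (lines) for each of the 31 genes in the 3 comparisons, 3 mice per group; the grey band marks changes under 1.5-fold. Most lines stay within the band. The lines that do not cross 0 are those of Ppara, Fabp3 and Acaa1b in the left panel, none in the middle one, and those of Ppara, Fabp3, Crat, Acadm, Eci2, Etfb and Acox2 in the right one.

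**Figure D2:**
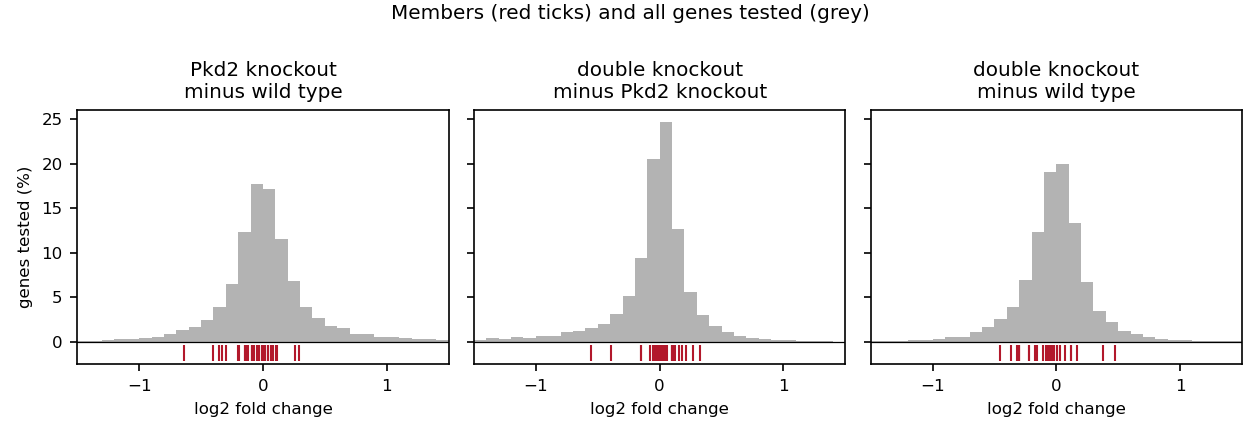
Share of all 15740 genes tested (grey bars, percent per bin of log2 fold change, drawn between -1.5 and 1.5 only) and the 31 genes (red ticks) in each comparison. The ticks lie between -0.64 and 0.29 in the left panel, -0.56 and 0.33 in the middle one and -0.45 and 0.47 in the right one, within the body of all genes.

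The 2 regulators gave unlike values. Ppara had 3713, 3970 and 3046 normalized counts in double knockout, 3160, 3402 and 2869 in Pkd2 knockout and 2376, 2825 and 2493 in wild type kidneys. All double knockout mice and all Pkd2 knockout mice stood above all wild type mice, and the mutant groups overlapped. The log2 fold change of double knockout over wild type was 0.47 (SE 0.11, 95% interval 0.22 to 0.73, limma adjusted p = 0.164) and that of Pkd2 knockout over wild type 0.29 (SE 0.11, 0.04 to 0.55, adjusted p = 0.219), neither past the threshold. Ppargc1a had 5677, 5614 and 4670 in double knockout, 4092, 4610 and 5104 in Pkd2 knockout and 4934, 5152 and 4590 in wild type kidneys. Its groups overlapped throughout, with log2 differences of 0.21 (double minus Pkd2 knockout), 0.12 (double knockout minus wild type) and -0.09 (Pkd2 knockout minus wild type).

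Among the uptake and activation genes, the spread between double knockout mice was wide. Cd36, a fatty acid transporter of tubule, endothelial and fat cells and macrophages, had 24719, 24098 and 42472 in double knockout, 45445, 38985 and 32571 in Pkd2 knockout and 34129, 36502 and 39255 in wild type kidneys. Double knockout mice 1 and 2 were the lowest of all 9 and mouse 3 was among the highest, so the groups overlapped and the log2 difference of -0.40 from Pkd2 knockout (95% interval -0.87 to 0.08, limma adjusted p = 0.576) was within the spread. Acsm3, a mitochondrial medium-chain acyl-CoA synthetase, was likewise lower in double knockout mice 1 and 2 than in mouse 3, with 20341, 25418 and 49808, against 54408, 40214 and 37509 in Pkd2 knockout and 42164, 40016 and 28547 in wild type kidneys. Its coefficient of variation in double knockout was 49.5%, the widest of the 31 genes in any group, and its interval for double minus Pkd2 knockout ran from -1.25 to 0.13. Acsl1, which activates long-chain fatty acids, had 5348, 9782 and 8299 in double knockout, 6376, 6296 and 8327 in Pkd2 knockout and 7125, 7019 and 6762 in wild type kidneys, where mice 1 and 2 of the double knockout group held the lowest and the highest value of all 9.

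Fabp3, a cytosolic fatty acid carrier and one of the less abundant genes here, had 638, 738 and 522 in double knockout, 602, 641 and 569 in Pkd2 knockout and 744, 725 and 857 in wild type kidneys. All Pkd2 knockout mice stood below all wild type mice, while double knockout mouse 2 lay among the wild type values. The log2 difference was -0.36 for Pkd2 knockout minus wild type (SE 0.13, limma adjusted p = 0.195) and -0.30 for double knockout minus wild type (SE 0.13, adjusted p = 0.414).

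The carnitine shuttle was nearly level between genotypes. Cpt1a, the gate through which long-chain fatty acids enter mitochondria, had 22270, 24787 and 21398 in double knockout, 23085, 21933 and 25321 in Pkd2 knockout and 21867, 22976 and 20331 in wild type kidneys. Its groups overlapped in every comparison, and its 95% intervals bounded the log2 difference to between -0.12 and 0.26 for double knockout minus wild type and to between -0.09 and 0.30 for Pkd2 knockout minus wild type. Slc25a20, the carnitine-acylcarnitine carrier of the inner membrane, averaged 2176 ± 549 in double knockout, 2252 ± 119 in Pkd2 knockout and 2306 ± 263 in wild type kidneys, and Cpt2, which frees the acyl-CoA inside, averaged 6106 ± 798, 6114 ± 449 and 6755 ± 228 in the same order of groups. Crat, an acetyltransferase for short chains, averaged 6267 ± 658 in double knockout, 6423 ± 204 in Pkd2 knockout and 7051 ± 67.3 in wild type kidneys, and all Pkd2 knockout mice stood below all wild type mice. Crot, which hands medium chains from peroxisomes to carnitine, averaged 23779 ± 3094 in double knockout, 26235 ± 1133 in Pkd2 knockout and 24443 ± 800 in wild type kidneys, with all Pkd2 knockout mice above all wild type mice.

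The 4 acyl-CoA dehydrogenases each start the mitochondrial turn for chains of a given length. Acadm, for medium chains, had 27378, 43757 and 44852 in double knockout, 45811, 43229 and 37413 in Pkd2 knockout and 53078, 48167 and 53892 in wild type kidneys. Every mutant mouse stood below every wild type mouse, and double knockout mouse 1 lay far below the rest. The log2 difference was -0.45 for double knockout minus wild type (SE 0.18, limma adjusted p = 0.362) and -0.30 for Pkd2 knockout minus wild type (SE 0.18, adjusted p = 0.405); without double knockout mouse 1 the first was -0.22. Acadvl, for very long chains, averaged 5257 ± 768 in double knockout, 5022 ± 309 in Pkd2 knockout and 5547 ± 882 in wild type kidneys. Acadl, for long chains, averaged 13831 ± 1184, 13539 ± 821 and 14431 ± 793, and Acads, for short chains, 8051 ± 1094, 8344 ± 676 and 8093 ± 157, in the same order of groups. These 3 overlapped in all comparisons, and their intervals lay within a 1.5-fold change in each.

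The later steps of the mitochondrial turn differed little. Hadha and Hadhb, the subunits of the trifunctional protein, averaged 9916 ± 1302 and 3933 ± 622 in double knockout, 9945 ± 132 and 3511 ± 307 in Pkd2 knockout and 9846 ± 1018 and 4033 ± 675 in wild type kidneys. Echs1, a hydratase, averaged 8921 ± 70.8 in double knockout, 8343 ± 552 in Pkd2 knockout and 9214 ± 757 in wild type kidneys, and Hadh, the hydroxyacyl-CoA dehydrogenase for shorter chains, 20625 ± 1576, 21004 ± 761 and 21787 ± 1143. Acaa2, the mitochondrial thiolase, averaged 5711 ± 1095 in double knockout, 5279 ± 479 in Pkd2 knockout and 5119 ± 1160 in wild type kidneys. In all 5 the groups overlapped in every comparison and the intervals lay within a 1.5-fold change.

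Of the enzymes that prepare unsaturated fatty acids, Eci1, a mitochondrial enoyl-CoA isomerase, had 1977, 2297 and 2057 in double knockout, 2025, 1937 and 1926 in Pkd2 knockout and 2095, 2016 and 4142 in wild type kidneys. Wild type mouse 3 alone was high, and the other 8 mice lay between 1926 and 2297. The log2 difference of -0.40 for Pkd2 knockout minus wild type (SE 0.23, limma adjusted p = 0.395) was -0.07 without that mouse. Eci2, a related isomerase found in peroxisomes as well, averaged 3437 ± 304 in double knockout, 3529 ± 123 in Pkd2 knockout and 3845 ± 76.1 in wild type kidneys. Decr1, which reduces dienoyl-CoA, averaged 8596 ± 707 in double knockout, 8839 ± 398 in Pkd2 knockout and 8853 ± 864 in wild type kidneys.

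Electrons from each turn leave through 3 proteins. Etfa, a subunit of the electron transfer flavoprotein, ranged from 12247 to 13772 over all 9 mice, the narrowest range of the 31 genes relative to its level, and averaged 12942 ± 257 in double knockout, 12830 ± 701 in Pkd2 knockout and 13498 ± 246 in wild type kidneys. Etfb, the other subunit, had 9062, 10009 and 9377 in double knockout, 9793, 9824 and 9211 in Pkd2 knockout and 10298, 10084 and 12882 in wild type kidneys. All mutant mice stood below all wild type mice, with mouse 3 of the wild type group well above the others, and the log2 difference was -0.22 for double knockout minus wild type (limma adjusted p = 0.425), or -0.11 without that mouse. Etfdh, the dehydrogenase that passes the electrons on, averaged 8454 ± 936 in double knockout, 8201 ± 537 in Pkd2 knockout and 8398 ± 791 in wild type kidneys.

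In the peroxisomal turn, Acox2, the oxidase for branched chains and bile acid intermediates, had 4364, 5469 and 5131 in double knockout, 3982, 3956 and 3924 in Pkd2 knockout and 4229, 4520 and 2948 in wild type kidneys. All double knockout mice stood above all Pkd2 knockout mice, and wild type mouse 3 was the lowest of all 9. The log2 difference was 0.33 for double minus Pkd2 knockout (SE 0.15, limma adjusted p = 0.486) and 0.37 for double knockout minus wild type (SE 0.15, adjusted p = 0.377, 0.18 without wild type mouse 3). Ehhadh, the bifunctional enzyme of straight chains, had 26336, 35605 and 47608 in double knockout, 36350, 33379 and 28945 in Pkd2 knockout and 38532, 37124 and 49219 in wild type kidneys. Pkd2 knockout mice stood below wild type mice, the double knockout mice spanned nearly the whole range, and the log2 difference of -0.33 for Pkd2 knockout minus wild type missed the threshold (SE 0.20, limma adjusted p = 0.414). Hsd17b4, the other bifunctional enzyme, averaged 9859 ± 426 in double knockout, 9649 ± 801 in Pkd2 knockout and 10238 ± 456 in wild type kidneys.

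Acaa1b, one of the near-identical thiolase genes shown above, had the largest fold of the 31 genes between Pkd2 knockout and wild type. It had 4565, 5545 and 3129 in double knockout, 3106, 3576 and 4041 in Pkd2 knockout and 5171, 5057 and 6511 in wild type kidneys. All Pkd2 knockout mice stood below all wild type mice, and the double knockout mice spread over both. The log2 difference was -0.64 for Pkd2 knockout minus wild type (SE 0.20, 95% interval -1.09 to -0.20, limma adjusted p = 0.133) and missed the threshold; it was called without double knockout mouse 3, a mouse outside that comparison that enters only through the shared spread (adjusted p = 0.0494, and between 0.0125 and 0.511 over all settings tried).

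Acaa1a had 4482, 4343 and 3877 in double knockout, 3877, 4134 and 4542 in Pkd2 knockout and 3896, 4089 and 4447 in wild type kidneys. Its groups overlapped, with log2 differences between 0.01 and 0.03. Because the reading frames of the copies are near-identical over long runs and the treatment of shared reads is not given in the sources used here, their split is uncertain. Acaa1b made up 50.5%, 56.1% and 44.7% of the pair's normalized counts in double knockout, 44.5%, 46.4% and 47.1% in Pkd2 knockout and 57.0%, 55.3% and 59.4% in wild type kidneys. The Pkd2 knockout and wild type shares did not overlap (exact two-sided permutation p = 0.1, the smallest that 3 against 3 can give). The sum of the pair averaged 8647 ± 1482 in double knockout, 7759 ± 801 in Pkd2 knockout and 9724 ± 1069 in wild type kidneys (exact two-sided permutation p = 0.1 for Pkd2 knockout against wild type).

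**Figure D3:**
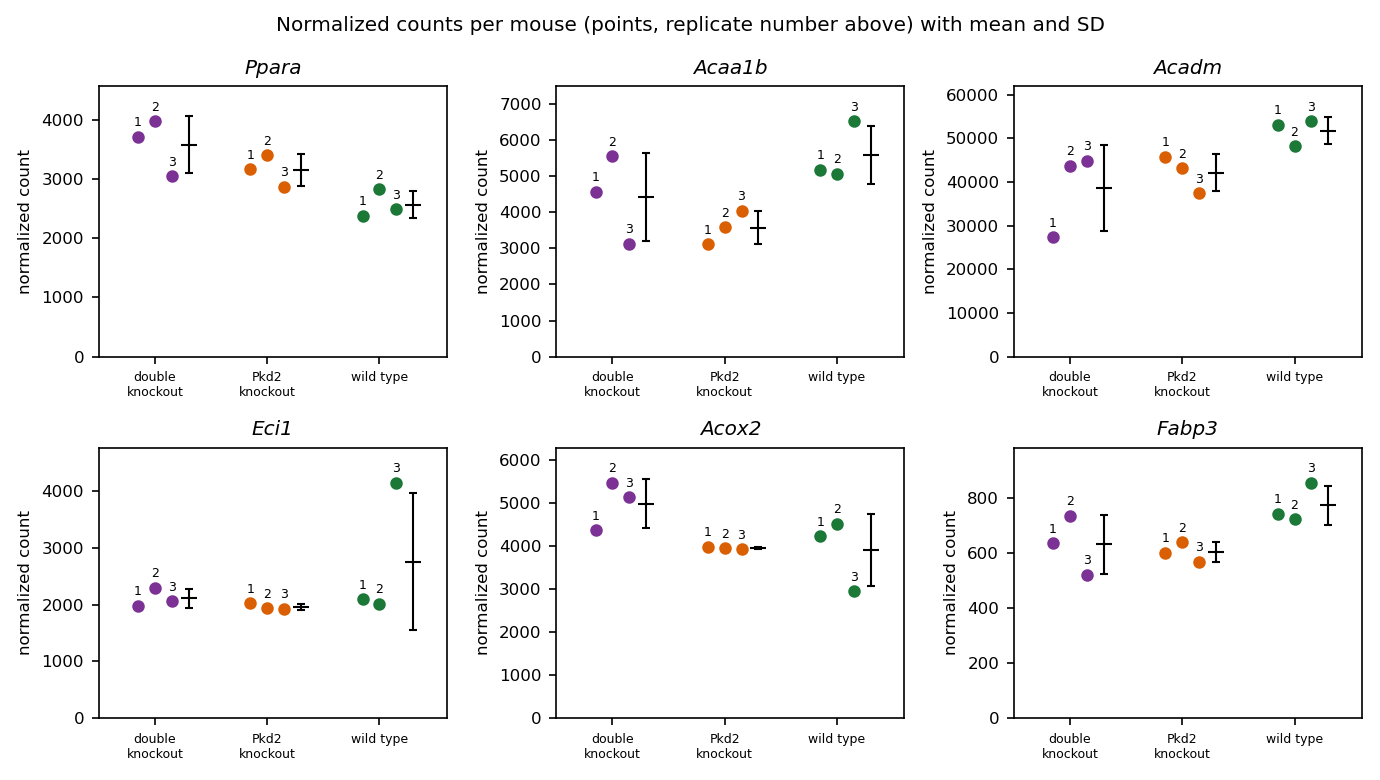
Normalized counts of 6 genes in each mouse (points with replicate number), with mean and SD beside them, for double knockout, Pkd2 knockout and wild type, 3 mice each; axes start at 0. The points of Ppara lie above wild type in both mutant groups, those of Acadm below, and those of Acaa1b and Fabp3 below in Pkd2 knockout, and wild type mouse 3 stands alone in Eci1 and at the bottom in Acox2.

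Counted over the 31 genes, the groups did not overlap for 9 of 31 between Pkd2 knockout and wild type (Crot and Ppara higher; Acaa1b, Acadm, Crat, Eci2, Ehhadh, Etfb and Fabp3 lower), where 25.2% of all genes did not overlap. They did not overlap for 1 of 31, Acox2, between double and Pkd2 knockout (15.2% of all genes, 7.4% higher). They did not overlap for 4 of 31 between double knockout and wild type (18.3% of all genes), with Ppara higher (9.1%) and Acadm, Etfa and Etfb lower (9.24%). These shares are near or below those of all genes. In direction, 7 of 31 lay wholly lower in Pkd2 knockout, where 12.8% of all genes did, and 2 wholly higher, where 12.4% did. The mean was lower in Pkd2 knockout than in wild type for 20 of 31 genes (49.2% of all genes) and lower in double knockout than in wild type for 22 of 31 (50.2%), and lower in double than in Pkd2 knockout for 14 of 31 (48.7%). Single wild type mice lay below the wild type mean for 21, 22 and 8 of 31 genes (mice 1, 2 and 3). Pkd2 knockout mice did so for 22, 22 and 19 and double knockout mice for 25, 16 and 16. Over the 9 mice, 48.8% to 51.6% of all genes lay below it. With wild type mouse 3 left out, genes including Acadvl, Echs1, Eci1 and Decr1 turned higher in double knockout than in wild type (log2 differences 0.02 to 0.05). None turned lower. The count for double knockout thus rests in part on that mouse. For Pkd2 knockout the changes went both ways, with Slc25a20 and Etfdh turning higher (0.06 and 0.04) and Acox2 lower (-0.14).

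Single mice stood apart in the pathway. Summed, the 31 genes made up 0.754%, 0.851% and 0.968% of the normalized counts in double knockout, 0.965%, 0.904% and 0.887% in Pkd2 knockout and 0.935%, 0.918% and 0.964% in wild type kidneys, and the groups overlapped. Double knockout mouse 1 was the lowest of all 9 for 16 of 31 genes, among them Acadm, Ehhadh, Acsm3, Cpt2 and Hadha, while it was the lowest for 9.87% of all genes. Wild type mouse 3 was the highest of all 9 for 14 of 31 genes, among them Eci1, Etfb, Acaa1b and Ehhadh, against 18.1% of all genes. Its values were a median 1.09 times the mean of the other two wild type mice over the 31 genes and 1.004 times over all genes. Without wild type mouse 3 and double knockout mouse 1, a choice made on these same values, 0 of 31 genes were called in each comparison (limma, 1.43% of all genes between Pkd2 knockout and wild type, 0.108% between double and Pkd2 knockout and 0.102% between double knockout and wild type).

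**Figure D4:**
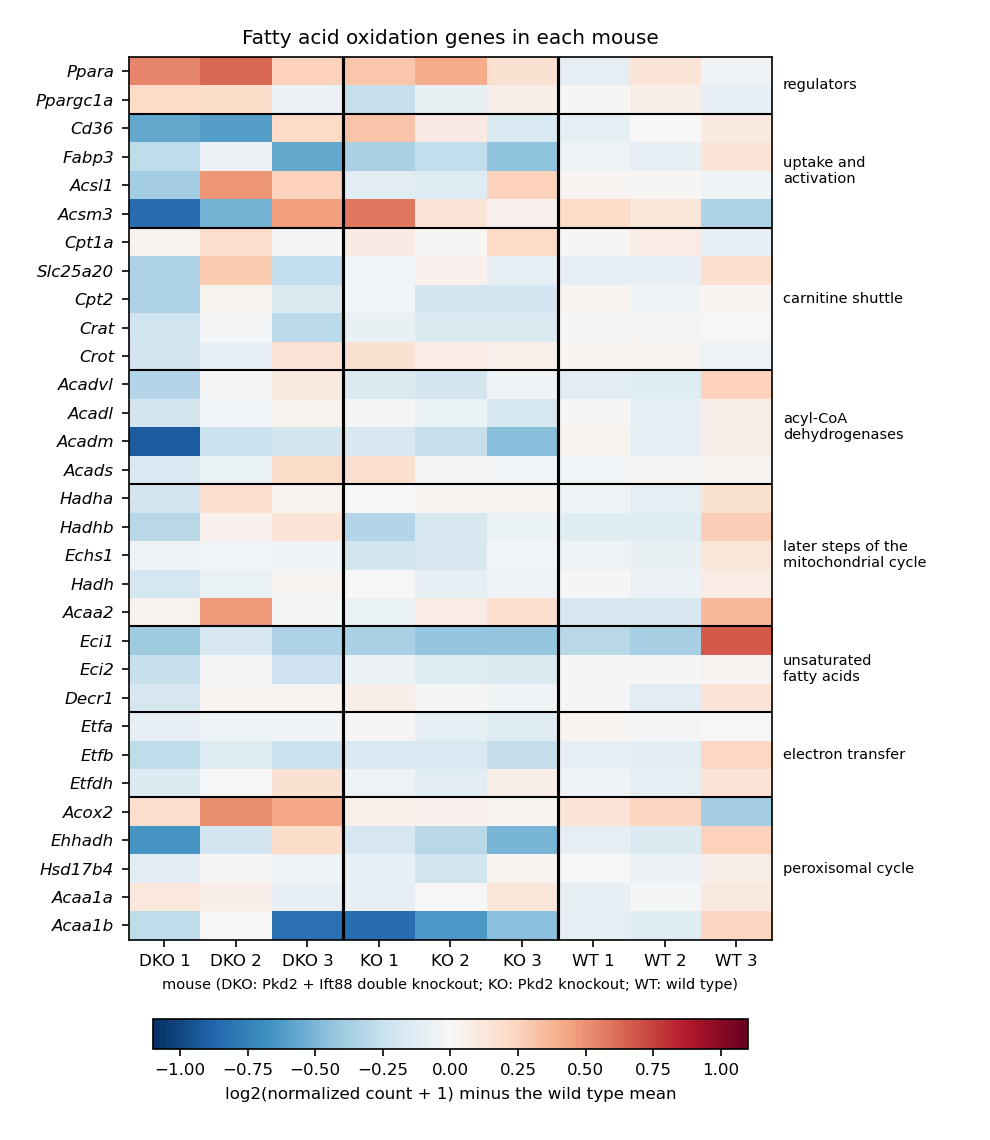
Difference of each gene's log2(normalized count + 1) from the wild type mean (colour, blue lower, red higher) in each of the 9 mice, genes ordered by role. Double knockout mouse 1 is blue in most rows, wild type mouse 3 is reddish in most rows and dark red in Eci1, and Ppara is red in all 6 mutant mice.

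Levels were compared between genes per length, as normalized counts per kilobase of the principal GENCODE M21 transcript. In wild type kidneys Acadm was the highest, at 25262 ± 1513 per kilobase, clear of Ehhadh at 13963 ± 2219, whose range overlapped those of Acsm3, Etfb and Hadh. In double knockout kidneys Acadm stood at 18887 ± 4782 and Ehhadh at 12250 ± 3578 per kilobase, and in Pkd2 knockout at 20592 ± 2101 and 11034 ± 1250. The lowest in wild type were the regulators, Ppargc1a at 823 ± 87.3 in double knockout, 712 ± 78.3 in Pkd2 knockout and 757 ± 43.8 in wild type, and Ppara at 1048 ± 140, 921 ± 78.3 and 751 ± 68.2 in the same order of groups; the 2 overlapped in wild type. In double knockout kidneys the mean of Fabp3 was the lowest, at 769 ± 131 per kilobase, and its range overlapped that of Ppargc1a. Exons of other genes overlap 58.2% of the exonic bases of Etfb (mostly Gm45233, same strand), 42.9% of Acadvl (Dvl2, opposite strand) and 39.7% of Acsm3 (Eri2, opposite strand) in that annotation. Whether counting used strand, and how it treated reads in such overlaps, is not given in the sources used here. The values of Etfb, Acadvl and Acsm3 may thus hold reads of those genes or lack reads of their own.

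Beyond the 31, lists of related genes held 5 genes called by limma, all between Pkd2 knockout and wild type, where 2.4% of all genes were called (1.14% higher, 1.25% lower). Of 27 other mitochondrial oxidation genes tested 1 fell, Acadsb, the dehydrogenase of short branched chains (7380, 7864 and 7760 in double knockout, 7242, 6711 and 7023 in Pkd2 knockout, 8639, 8218 and 8473 in wild type; log2 fold change -0.27, SE 0.06, limma adjusted p = 0.0486). Of 26 other peroxisomal genes 1 fell, Pecr, a peroxisomal enoyl-CoA reductase, with 12424, 12548 and 13915 in double knockout, 13969, 12696 and 12614 in Pkd2 knockout and 17126, 17069 and 19795 in wild type kidneys. Both mutant groups of Pecr stood below wild type, at -0.46 for Pkd2 knockout (adjusted p = 0.0297) and -0.47 for double knockout (adjusted p = 0.0850).

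Of 21 other uptake and activation genes 2 fell and 1 rose in Pkd2 knockout. Acsm1, a medium-chain acyl-CoA synthetase, averaged 8120 ± 579 in double knockout, 6254 ± 481 in Pkd2 knockout and 8672 ± 843 in wild type kidneys (Pkd2 knockout minus wild type -0.47, limma adjusted p = 0.0368). Aldh9a1, an aldehyde dehydrogenase of carnitine synthesis, averaged 17842 ± 1033, 16336 ± 459 and 20648 ± 395 in the same order of groups (-0.34, adjusted p = 0.0337). Slc22a4, an organic cation transporter that can carry carnitine, averaged 3735 ± 329 in double knockout, 4354 ± 573 in Pkd2 knockout and 3115 ± 125 in wild type kidneys (0.48, adjusted p = 0.0474). None of these 5 calls held when Pkd2 knockout mouse 1 or 2, or wild type mouse 1, 2 or 3, was left out, and of the 5 only Acsm1 did without Pkd2 knockout mouse 3. All 5 were also lost without an intensity trend (limma adjusted p from 0.0596 to 0.0973) and with the replicate number as a block (0.0543 to 0.0943). Acadsb and Slc22a4 were lost as well with no filter on low values (0.0721 and 0.0551), with quantile normalization (0.0608 and 0.0682), with only the 2 groups compared and when any one double knockout mouse was left out. Acsm1 was also lost with only the 2 groups compared (0.0575) and without double knockout mouse 2 (0.0523). On the 7 recovered libraries edgeR called none of the 5 and DESeq2 called Pecr alone (adjusted p = 0.0030). DESeq2 also called Pecr between double knockout and wild type.

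None of 29 PPAR-alpha targets outside the 31, of 27 other regulators and of 20 lipid droplet genes was called by limma in any comparison; edgeR and DESeq2 on the recovered libraries called none either. At an unadjusted p below 0.05 there were 5 of the 29 targets between Pkd2 knockout and wild type (18% of all genes), 6 between double and Pkd2 knockout (10.7%) and 2 between double knockout and wild type (11.7%). Median log2 differences of the targets were -0.07, 0.07 and 0.04 in the same order of comparisons, and the lists share some genes. Among targets with a mean of at least 50, the largest difference between Pkd2 knockout and wild type and between double and Pkd2 knockout was that of Cidec, a fat droplet protein, with 103, 140 and 77.6 in double knockout, 352, 93.4 and 687 in Pkd2 knockout and 217, 241 and 85.99 in wild type kidneys, where Pkd2 knockout mice 1 and 3 were high. The same mice were high in Plin4, a fat droplet coat protein, with 170, 288 and 102 in double knockout, 359, 142 and 631 in Pkd2 knockout and 257, 278 and 78.4 in wild type kidneys. The sum of the 11 adipocyte markers, which include Cidec itself, was high in these mice too. It was 2730, 3853 and 4118 in double knockout, 6212, 3424 and 9377 in Pkd2 knockout and 4152, 5158 and 3364 in wild type kidneys. The part of adipocytes in the values of Cidec and Plin4 was not tested. Plin4 had the largest difference of the lipid droplet genes between Pkd2 knockout and wild type (0.84, SE 0.64), and Cidec in the comparisons of double knockout (-1.44 against Pkd2 knockout and -0.66 against wild type, SE 0.66). Of the regulators, Pparg, the fat cell PPAR, differed by 0.81 between Pkd2 knockout and wild type and by -0.60 between double and Pkd2 knockout (SE 0.29), and the transcription factor Klf15 by 0.32 between double knockout and wild type (SE 0.15). The lipolysis inhibitor G0s2 led the targets between double knockout and wild type, at -0.85 (SE 0.41). In the comparisons of double knockout, limma called no gene of the other 3 lists either. Taking from each of these lists the gene of largest log2 difference with a mean of at least 50, the values against Pkd2 knockout were -1.36 for Abcd2 (peroxisomal, SE 0.51), -0.68 for Fabp4 (uptake and activation) and 0.35 for Acss1 (mitochondrial), and against wild type -0.61 for Hacl1 (peroxisomal), 0.64 for Acsf2 (uptake and activation) and 0.37 for Acss1 (mitochondrial). Fabp4 is also one of the 11 adipocyte markers. Abcd2 had 29.5, 25.4 and 31.6 in double knockout, 79.4, 39.2 and 136 in Pkd2 knockout and 53.2, 63.1 and 19.6 in wild type kidneys. It was thus highest in Pkd2 knockout mice 1 and 3, whose adipocyte marker sums were high. The part of adipocytes in the values of Fabp4 and Abcd2 was not tested either.

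Markers of kidney cell types were read beside these values. All 20 proximal tubule markers were above 0 in every mouse, and their sum ranged from 2120838 to 2477651 in double knockout, 2278890 to 2495369 in Pkd2 knockout and 2337480 to 2511189 in wild type kidneys, so the tissue label fits its markers and the group ranges overlap. Of these markers, 2 of 20 were called by limma between Pkd2 knockout and wild type (2.4% of all genes), Slc5a12 higher and Miox lower. The 10 thick ascending limb markers summed to 230425 to 300796 in double knockout, 175532 to 213129 in Pkd2 knockout and 366823 to 385006 in wild type kidneys, with no overlap between groups. By limma 5 of the 10 fell in Pkd2 knockout against wild type, where 1.25% of all genes were called lower. On the 7 recovered libraries DESeq2 called 7 of 10 (1.92% of all genes with an adjusted p). On the same libraries edgeR (0.07% of all genes) and limma called 0 of 10. For Cd36 and Fabp3, which other cells also make, endothelial markers summed to 21057 to 23540 in double knockout, 20930 to 24781 in Pkd2 knockout and 23377 to 25338 in wild type kidneys. Macrophage markers summed to 4804 to 5710 in double knockout, 6068 to 8002 in Pkd2 knockout and 5201 to 5918 in wild type kidneys, and Lep, an adipocyte marker, was listed at 0 in some mice. Of 9 collecting duct markers 1 fell by limma in Pkd2 knockout against wild type (Atp6v1g3, where 1.25% of all genes were called lower). Of 10 fibroblast markers 1 fell in double against Pkd2 knockout (Col1a1, where 0.394% of all genes were called in either direction). At an unadjusted limma p below 0.05, 7 of these 10 were lower there, where 6.49% of all genes were. Fibroblast markers summed to 7546 to 9080 in double knockout, 11835 to 19995 in Pkd2 knockout and 9364 to 13877 in wild type kidneys. The ranges of double and Pkd2 knockout did not overlap. None of the tested endothelial (11), macrophage (9), adipocyte (11), erythroid (6), muscle (2) and adrenal (1) markers was called by limma in any comparison. The part of these cell types in the values of the 31 genes was not tested.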

How the data were processed

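The authors deposited 1 table of normalized counts per gene for 9 mouse kidney libraries, a signal scaled with DESeq2 after alignment with STAR 2.5.0 and counting with HTSeq 0.6.1, per the submitters' processing notes. The sources used here give no genome build, annotation, DESeq2 version or strand setting. Groups follow the sample titles. All 9 libraries entered one limma fit (version 3.58.1, R 4.3.3) of log2(normalized count + 1) by genotype, with an intensity trend and no block, over 15740 genes with a mean of at least 10. Calls are at a two-sided Benjamini-Hochberg adjusted p below 0.05 over all of them, and a fold change on this scale slightly understates that of low genes. The procedure was tested on simulated data. Whole reads (within 0.05 of a whole number) were recovered for 7 libraries (37056843 to 47314829 reads), not for wild type 1 and Pkd2 knockout 1, whose scaling lay too close to 1. edgeR 4.0.16 and DESeq2 1.42.0 were run on these as alternatives, beside other pseudocounts, filters and scalings, array quality weights and leaving out libraries. The 31 genes, the lists and the markers were chosen with earlier results of these data known. Given in full were Ppara, Ppargc1a, Cpt1a, Acadm, Ehhadh, Cd36, Fabp3, Acaa1a and Acaa1b by rule, and Acsl1, Acsm3, Eci1, Etfb and Acox2 after their values were seen; from each list up to 4 called genes or else the largest uncalled one with a mean of at least 50. 25 rows with gene names turned into dates stayed in the table. Sequences are from GENCODE M21 and RefSeq (GRCm38.p6), and no genome coordinates of the counted genes are given, since the authors' build is unknown.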

Additional observations from a re-analysis of the deposited data

How the results depend on the processing

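The count of called genes among the 31 was 0 in each comparison under other pseudocounts, filters and scalings, without an intensity trend, with only the groups compared, and with edgeR or DESeq2. Array quality weights, which gave wild type 3 and Pkd2 knockout 3 the lowest weights, called 2 of 31 between Pkd2 knockout and wild type, where they called 3222 of 15740 genes (Ppara at 0.34, adjusted p = 0.0274, and Acaa1b at -0.63, adjusted p = 0.0125) and 1 of 31 between double knockout and wild type, where they called 1.87% (Ppara at 0.53, adjusted p = 0.0420). Over all settings the adjusted p of Ppara ran from 0.0274 to 0.773 for Pkd2 knockout and from 0.0420 to 0.595 for double knockout against wild type; the cause was not tested. Leaving out 1 library gave 0 to 1 calls between Pkd2 knockout and wild type, the 1 being Acaa1b without double knockout 3, and 0 to 0 in the other comparisons. The replicate numbers did not pair the mice (correlations of deviations from -0.14 to 0.21), and the replicate block gave 0 calls in each comparison, with a smallest adjusted p of 0.127.

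Calls over all genes between Pkd2 knockout and wild type were 377, against 3222 with array weights, 217 with the replicate block, 11 with edgeR, 13 with limma on the same 7 libraries, 296 with DESeq2 and 70 to 436 when 1 library was left out. Between double and Pkd2 knockout they were 62, against 614, 15, 10, 11, 152 and 8 to 155 in the same order; between double knockout and wild type 36, against 295, 20, 10, 11, 114 and 18 to 58. Between double and Pkd2 knockout they were 31 with quantile normalization and 28 with only those groups. Without wild type 3 and Pkd2 knockout 3 there were 513, 311 and 115 in the 3 comparisons, and without wild type 3 and double knockout 1 there were 226, 17 and 16.

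Of 432 single-gene values under other settings, 17 changed sign, all small. For double minus Pkd2 knockout Acaa1a was -0.014 with quantile normalization, -0.038 with edgeR, -0.037 with DESeq2, -0.036 with limma on the same 7 libraries and -0.025 without wild type 3 and double knockout 1; Cpt1a was 0.020 with array weights and 0.017 without wild type 3 and Pkd2 knockout 3; Ehhadh was -0.027 with array weights; Acadm was 0.077 without wild type 3 and double knockout 1. For double knockout minus wild type Acaa1a was -0.0071 with edgeR, -0.011 with DESeq2 and -0.013 with limma on 7 libraries, and Ehhadh 0.12 without wild type 3 and double knockout 1. For Pkd2 knockout minus wild type Cd36 was -0.074 with edgeR, -0.079 with DESeq2 and -0.087 with limma on 7 libraries, and Ppargc1a 0.0028 with edgeR. Leaving out 1 library changed the sign of 13 of 243 values. For double minus Pkd2 knockout the ranges were -0.28 to 0.077 for Acadm, -0.036 to 0.080 for Acaa1a, -0.064 to 0.18 for Fabp3, -0.10 to 0.017 for Cpt1a and -0.097 to 0.33 for Ehhadh. They were -0.013 to 0.093 for Acaa1a in double knockout minus wild type, and -0.037 to 0.20 for Cd36 and -0.048 to 0.067 for Acaa1a in Pkd2 knockout minus wild type.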

Other observations

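The PPAR-alpha targets Angptl4 and Cyp4a10, outside the 31 genes, were picked here for their place in textbooks, with their values known, and neither was called in any comparison by limma at an adjusted p below 0.05. Angptl4, an inhibitor of lipoprotein lipase, had 1873, 4390 and 1872 in double knockout, 1608, 1356 and 1456 in Pkd2 knockout and 1608, 2659 and 2143 in wild type kidneys, with double knockout mouse 2 the highest and the groups of double knockout and wild type overlapping. Cyp4a10, a fatty acid omega-hydroxylase, had 5297, 8495 and 5633 in double knockout, 3995, 4434 and 4439 in Pkd2 knockout and 6589, 6065 and 9659 in wild type kidneys. All Pkd2 knockout mice stood below all other mice in Cyp4a10, with a log2 difference from wild type of -0.76 (SE 0.20, limma adjusted p = 0.0943); Cyp4a genes have close copies, so its reads may be shared.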
